A study of Mus musculus with 20 samples.

Results

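The 9 genes described here carry the retinoic acid pathway from uptake of its precursor to removal of the acid: Stra6, Aldh1a2, Dhrs3, Crabp1, Crabp2, Rarb, Rarg, Cyp26a1 and Cyp26b1. They were chosen by name for their known roles, with earlier results of these data known. All 9 were found among the 35975 genes with a transcript in the tables. All 9 were also among the 18555 genes with enough counts to be tested. Polyadenylated RNA was measured in ES-E14TG2a, an established line of embryonic stem cells from mouse, with genotype WT or TKO. Cells were collected either in serum with LIF, a cytokine that keeps them undifferentiated (D0), or at D2, D4, D6 or D8 of differentiation to neural progenitor cells (NPC) on laminin in N2B27 medium, which is free of serum. Each of the 10 groups of genotype and day held 2 libraries that the labels call biological replicates, 20 in all. The labels do not define TKO or say how many clones it covers, and they name no added retinoic acid.

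Retinoic acid is made from vitamin A and acts through nuclear receptors that sit on DNA and switch target genes when the acid binds. Cells import retinol, oxidise it first to retinal and then to retinoic acid, carry the acid on small binding proteins and destroy it with cytochrome P450 enzymes. In the embryo the pathway gives the hindbrain and spinal cord their position along the body axis, and several of its own genes, among them Rarb, Cyp26a1, Stra6 and Dhrs3, are classical targets of the acid. The receptors bind direct repeats of a short half-site.

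On build GRCm38, in the GENCODE annotation, Stra6 lies at chr9:58063788-58153996, Aldh1a2 at chr9:71215789-71296243 and Crabp1 at chr9:54764748-54773110, all on the plus strand. Dhrs3 lies at chr4:144892827-144928209, Crabp2 at chr3:87948666-87953376 and Cyp26a1 at chr19:37697798-37701536, also on the plus strand. Rarb (chr14:16430839-16819156), Rarg (chr15:102234938-102257517) and Cyp26b1 (chr6:84571414-84593908) are on the minus strand.

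Direct repeats of the receptor half-site were looked for in the RefSeq promoter windows of build GRCm38.p6, which run from 250 bases before to 50 bases after a start site. A window was listed for 8 of the 9 genes, all but Crabp2, 14 windows in all. The repeat with a spacer of 5 bases was searched on both strands as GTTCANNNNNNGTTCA, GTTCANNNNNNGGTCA, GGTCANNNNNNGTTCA and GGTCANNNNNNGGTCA, since the purine before each copy is left free. It was found in 81 of 32817 windows (0.247%), and among the 9 genes in Rarb and Cyp26a1. The 30 bases around each match are shown, with the half-sites in capitals, because the 14 windows held no other match to the repeats searched.
Rarb, chr14:16575506-16575535, minus strand, which is the strand of the gene: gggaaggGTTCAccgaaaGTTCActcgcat
Cyp26a1, chr19:37697769-37697798, minus strand, opposite to the gene: caaattaGTTCAcccaaaGTTCAtctttaa
The Rarb repeat lies 37 to 52 bases before the RefSeq start, inside exons of the annotated transcripts Rarb-201 and Rarb-207. The Cyp26a1 repeat lies 17 to 32 bases before its start. Repeats of the same half-sites with a spacer of 1 base occurred in 0.402% of all windows and with a spacer of 2 bases in 0.399%, and in no window of these genes. A match describes letters in a window and no measured binding. Over the 10 group means the 2 genes did not follow each other (Pearson's r = -0.10 on the log2 scale, a description).

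Libraries held 26015282 to 38074768 estimated counts, and levels below are CPM, counts per 1e+06 after TMM scaling. A gene is called changed where edgeR's quasi-likelihood F test gave a Benjamini-Hochberg adjusted p under 0.05 over all 18555 genes. Transcripts of Dnmt1, the maintenance DNA methyltransferase, ran from 293 to 484 CPM in WT libraries and from 74.8 to 96.7 CPM in TKO libraries. Dnmt3a and Dnmt3b encode further DNA methyltransferases. Dnmt3a was lower in TKO on every day, and Dnmt3b from D0 to D6. At D8 Dnmt3b was higher in TKO, at 94.1 and 82.4 CPM against 55 and 38.3 CPM in WT. RNA of a whole culture was measured, so fewer cells of a type and less RNA per cell cannot be told apart.

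Along the WT time course the 9 genes fell into early, middle and late patterns. Aldh1a2 and Rarg were highest at D2, Rarb, Cyp26a1, Crabp1, Dhrs3 and Stra6 at D4, Crabp2 at D6 and Cyp26b1 at D8. From D2 to D4, all 9 genes changed in WT, where 61.9% of all genes tested did. Of these, 7 rose (31.8% of all genes rose) and 2, Rarg and Aldh1a2, fell (30.1% fell). In TKO, 7 of the 9 changed over the same step (61.9% of all genes), 5 upward (31.6%) and 2 downward (30.3%). The rise of Cyp26a1 in WT was the smallest of these changes, at a log2 fold change of 0.80 (edgeR adjusted p = 0.00664), and was lost without WT D2 replicate 2 (0.0859). The ratio between the highest and the lowest group mean of the WT course ran from 9.8 for Cyp26a1 to 881 for Cyp26b1, and that of the TKO course from 4.16 for Dhrs3 to 625 for Cyp26b1.

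**Figure D1:**
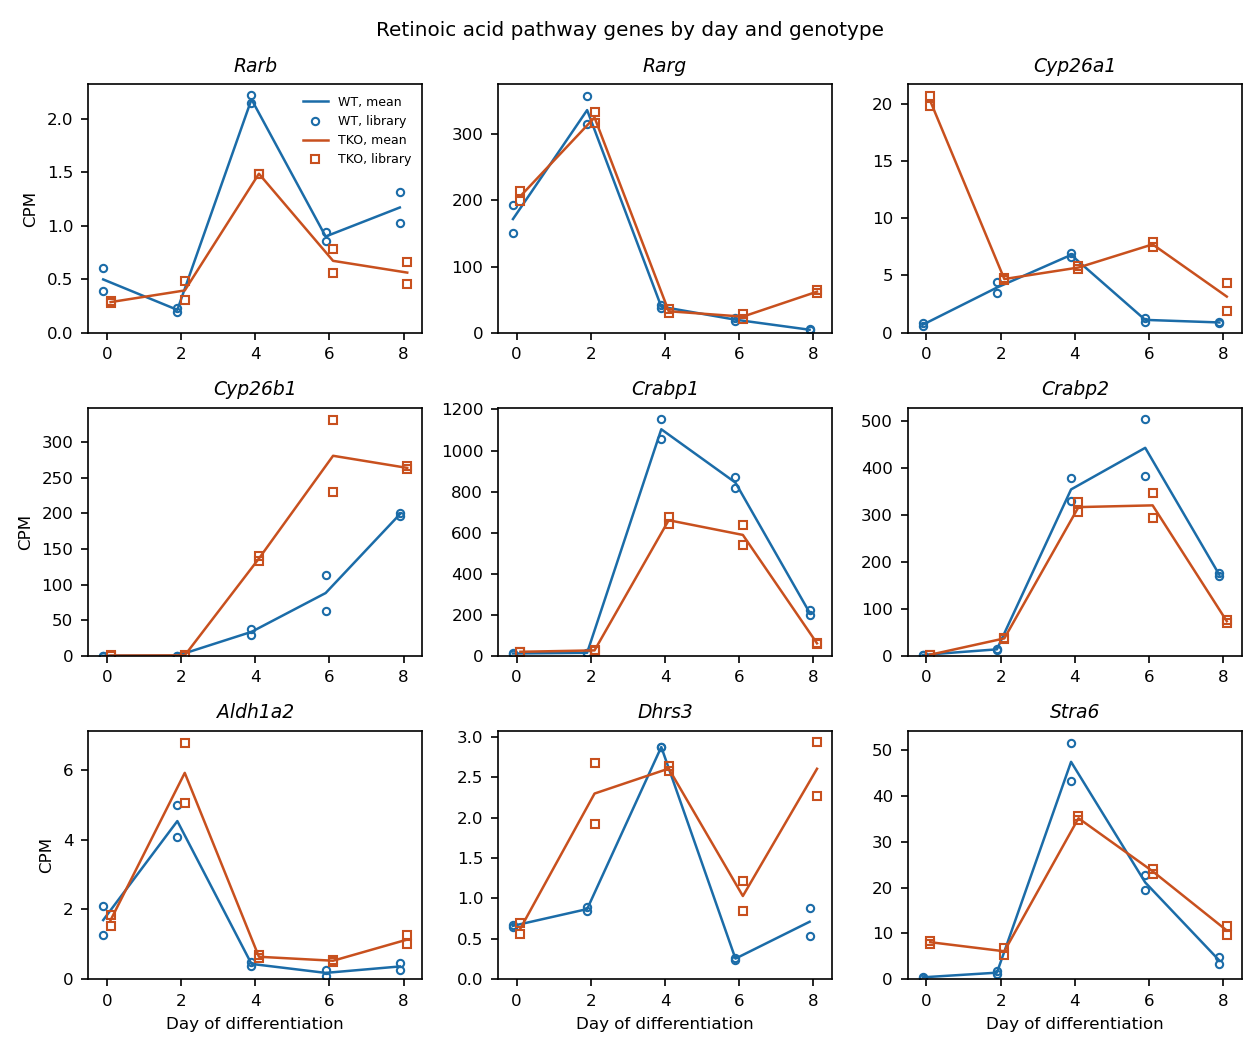
Levels of the 9 genes in CPM (vertical axis, linear, starting at 0) against day of differentiation (horizontal axis). Open circles are WT libraries, open squares TKO libraries, and lines join the means of 2 libraries. Crabp1 climbs to 1104 CPM in WT and 661 CPM in TKO at D4, and Cyp26a1 starts at 20.3 CPM in TKO and 0.693 CPM in WT at D0.

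Stra6, the membrane receptor that takes up retinol from its plasma carrier, was present in TKO stem cells at a level that WT reached only after D2. At D0 the WT libraries held 0.478 and 0.292 CPM and the TKO libraries 7.7 and 8.42 CPM. Both TKO libraries lay far above both WT libraries, a log2 fold change of 4.37 (SE 0.287, edgeR adjusted p = 2.94e-09). With counts scaled by transcript length the difference was smaller, at 3.46 (edgeR adjusted p = 1.71e-07).

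At D2 Stra6 stood at 1.67 and 1.14 CPM in WT against 6.89 and 5.25 CPM in TKO, again without overlap (log2 fold change 2.15, SE 0.236, edgeR adjusted p = 1.86e-06). Both genotypes then rose to their highest level at D4, with 51.6 and 43.3 CPM in WT against 34.7 and 35.6 CPM in TKO. The order of the genotypes was turned here, with TKO lower by a log2 fold change of -0.43 (SE 0.141, edgeR adjusted p = 0.0288). This call was lost without WT D4 replicate 1, TKO D4 replicate 1 or TKO D4 replicate 2, each of which leaves 1 library in a group. The log2 fold change was then -0.30, -0.42 and -0.45. It was also lost with counts scaled by transcript length (-0.46, edgeR adjusted p = 0.0852). At D6 the libraries held 22.7 and 19.5 CPM in WT against 23.1 and 24 CPM in TKO, and the difference was not called (edgeR adjusted p = 0.431). At D8 Stra6 was at 4.86 and 3.23 CPM in WT against 9.61 and 11.6 CPM in TKO, a log2 fold change of 1.39 (SE 0.180, edgeR adjusted p = 2.18e-06).

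The transcripts of Stra6 with most reads differed between the stem cells of TKO and the peak at D4. Stra6-202 starts at position 58129088 and Stra6-201 at 58129349 of chromosome 9 (GRCm38), 2 of 14 annotated transcripts. In the TKO D0 libraries Stra6-202 made up 52.1% and 41.6% of the TPM of the gene and Stra6-201 7.44% and 18.9%. In the D4 libraries Stra6-201 made up 58.3% and 66.6% in WT and 75.8% and 66.4% in TKO. At D8 Stra6-202 was at 49.6% and 44.9% in TKO, whereas the WT libraries split into 57% and a share near 0. TPM is the deposited length-scaled unit, and such shares are estimates that kallisto makes by dividing reads between overlapping transcripts. No test was made of them.

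**Figure D2:**
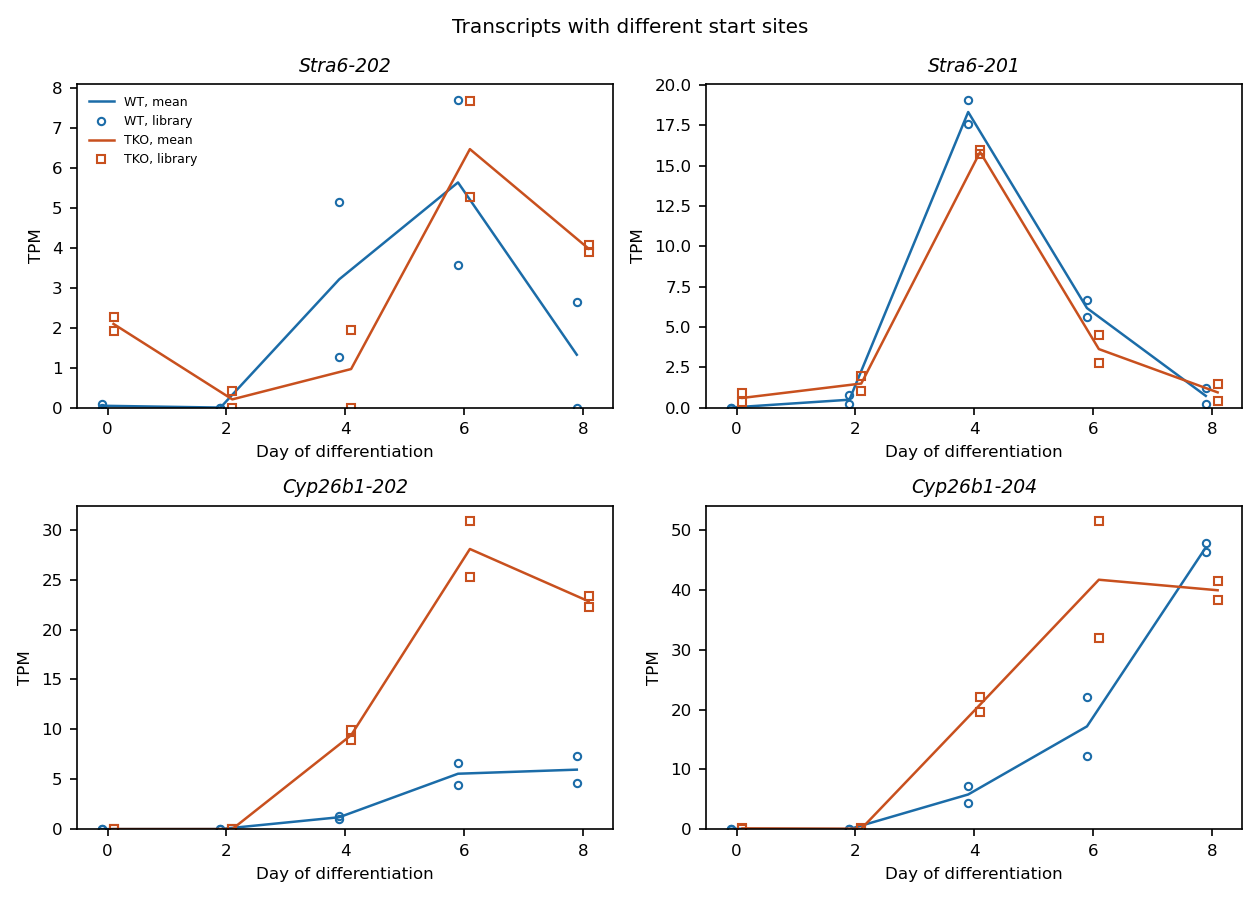
TPM (vertical axis, linear, starting at 0) of 2 transcripts of Stra6 and 2 of Cyp26b1 against day of differentiation, with WT libraries as circles, TKO libraries as squares and lines through the means of 2 libraries. Stra6-201 is at 18.3 TPM in WT and 15.8 TPM in TKO at D4, and Cyp26b1-202 at 5.96 TPM in WT and 22.8 TPM in TKO at D8.

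Aldh1a2, the retinaldehyde dehydrogenase that makes most retinoic acid in the early embryo, was low throughout and highest at D2. The WT libraries held 1.28 and 2.11 CPM at D0, 5 and 4.08 CPM at D2, 0.503 and 0.368 CPM at D4, 0.0909 and 0.265 CPM at D6, and 0.455 and 0.27 CPM at D8. The TKO libraries held 1.85 and 1.54, 6.79 and 5.05, 0.686 and 0.595, 0.493 and 0.561, and 1.01 and 1.26 CPM on the same days. Both genotypes thus lost most of the transcript between D2 and D4, with a log2 fold change of -3.36 in WT (SE 0.335, edgeR adjusted p = 9e-08) and -3.20 in TKO (SE 0.316, edgeR adjusted p = 9.08e-08).

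The genotypes overlapped in Aldh1a2 at D0 and parted later, with both TKO libraries above both WT libraries from D2 on. The difference was not called at D2 (log2 fold change 0.39, edgeR adjusted p = 0.274) or D4 (0.55, edgeR adjusted p = 0.332). It was called at D6 (1.57, SE 0.498, edgeR adjusted p = 0.0176) and at D8 (1.63, SE 0.382, edgeR adjusted p = 0.00104). At D6 the gene had 3 and 8 counts in WT, and the call was lost without WT D6 replicate 1 (log2 fold change 0.97, edgeR adjusted p = 0.19) or TKO D6 replicate 2 (edgeR adjusted p = 0.0721), while the log2 fold change was 2.48 without WT D6 replicate 2.

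Dhrs3, the reductase that turns retinal back into retinol and so limits the acid, ran at 3 CPM or less in every library. In WT it held 0.67 and 0.65 CPM at D0, 0.891 and 0.844 CPM at D2, 2.87 and 2.88 CPM at D4, 0.242 and 0.265 CPM at D6 and 0.882 and 0.539 CPM at D8. In TKO it held 0.557 and 0.696, 2.67 and 1.92, 2.57 and 2.64, 1.22 and 0.842, and 2.27 and 2.94 CPM. The genotypes overlapped at D0. Both TKO libraries were above both WT libraries at D2, D6 and D8, and both were below at D4 by less than the test could call.

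The TKO level of Dhrs3 was higher by a log2 fold change of 1.41 at D2 (SE 0.276, edgeR adjusted p = 0.00067), 2.02 at D6 (SE 0.355, edgeR adjusted p = 2e-04) and 1.87 at D8 (SE 0.273, edgeR adjusted p = 8.89e-06). At D4 it was -0.14 (edgeR adjusted p = 0.712). Rdh10, which carries out the reverse step from retinol to retinal, was measured at 6.51 and 6.09 CPM in WT against 10.7 and 13.7 CPM in TKO at D2 (log2 fold change 0.95, edgeR adjusted p = 2.48e-05).

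Crabp1 and Crabp2 encode the cellular binding proteins of retinoic acid. Crabp1 is linked to its turnover in the cytoplasm and Crabp2 hands it to the receptors in the nucleus. Per unit of length they reached the highest levels of the 9 genes, at 2612 ± 158 TPM for Crabp1 in WT at D4 and 1001 ± 172 TPM for Crabp2 in WT at D6 (SD, n = 2). Both turned from higher to lower in TKO in the course of differentiation.

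Crabp1 held 10.8 and 12.1 CPM in WT against 21.2 and 18.5 CPM in TKO at D0, and 15.5 and 14.3 CPM against 28.6 and 24.7 CPM at D2. TKO was thus higher at both early days, by a log2 fold change of 0.79 (SE 0.112, edgeR adjusted p = 2.52e-05) and 0.84 (SE 0.107, edgeR adjusted p = 9.71e-06). At D4 the WT libraries reached 1152 and 1056 CPM and the TKO libraries 643 and 679 CPM. WT was then the higher genotype, with a log2 fold change of TKO against WT of -0.74 (SE 0.0866, edgeR adjusted p = 5.55e-06).

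At D6 Crabp1 held 819 and 869 CPM in WT against 541 and 637 CPM in TKO (log2 fold change -0.52, SE 0.0865, edgeR adjusted p = 0.000118). At D8 the values were 199 and 222 CPM in WT against 58.9 and 63 CPM in TKO, the widest gap for this gene (-1.79, SE 0.092, edgeR adjusted p = 1.49e-11). The libraries of the genotypes did not overlap on any of the 5 days. The step from D2 to D4 raised Crabp1 by a log2 fold change of 6.21 in WT and 4.63 in TKO, and the difference between these steps was itself called (-1.58, SE 0.138, edgeR adjusted p = 9.06e-07).

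Crabp2 overlapped between the genotypes at D0, with 2.26 and 1.75 CPM in WT against 2.58 and 2.23 CPM in TKO. At D2 it held 15.5 and 12.3 CPM in WT against 37.5 and 36.8 CPM in TKO. Both TKO libraries were more than double either WT library, with a log2 fold change of 1.43 (SE 0.138, edgeR adjusted p = 4.35e-07). At D4 the values were 379 and 329.9 CPM in WT against 306 and 327 CPM in TKO, which the test did not part (-0.16, edgeR adjusted p = 0.311).

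At D6 Crabp2 held 383 and 503 CPM in WT against 294 and 348 CPM in TKO, a log2 fold change of -0.47 (SE 0.113, edgeR adjusted p = 0.00288). This call was lost without WT D6 replicate 2 (-0.26, edgeR adjusted p = 0.0859) and without TKO D6 replicate 1 (edgeR adjusted p = 0.0522). At D8 the libraries stood clear of each other, with 176 and 169 CPM in WT against 70.7 and 76.8 CPM in TKO (-1.22, SE 0.117, edgeR adjusted p = 4.75e-08). The 2 binding protein genes had similar courses over the 10 group means (r = 0.93, a description).

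Rarb and Rarg encode 2 of the 3 retinoic acid receptors, which bind DNA together with the retinoid X receptors. Rarg was highest at D0 and D2 and fell by D4, whereas Rarb stayed below 3 CPM in every library. Rarg held 150.1 and 194 CPM in WT against 214 and 199 CPM in TKO at D0, and 316 and 358 CPM against 333 and 318 CPM at D2. At D4 it was at 37.1 and 41.4 CPM in WT against 35.4 and 29.3 CPM in TKO, and at D6 at 21.7 and 17.5 CPM against 27.9 and 20.5 CPM. None of these 4 days gave a called difference (edgeR adjusted p = 0.136, 0.817, 0.188 and 0.137), although single alternatives did at D0, D4 and D6. At D0 the adjusted p was 0.0201 without WT D0 replicate 2, and at D6 it was 0.0337 without TKO D6 replicate 2. With no filter on low counts it was 0.00185 at D0, 0.00372 at D4 and 0.0023 at D6.

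At D8 Rarg had fallen further in WT, to 5.12 and 3.65 CPM, and stood at 64.6 and 59.3 CPM in TKO. The TKO libraries were more than 10-fold above the WT libraries, with a log2 fold change of 3.81 (SE 0.184, edgeR adjusted p = 6.96e-12). The step from D6 to D8 was -2.16 in WT and 1.35 in TKO, and the difference between the steps was 3.51 (SE 0.247, edgeR adjusted p = 4.99e-09). Rarg-202, which starts inside the gene at position 102246500 of chromosome 15 (GRCm38), made up 72.7% to 89% of the TPM of Rarg in every library, against 3.48% to 25.9% for Rarg-201, which starts at 102257517.

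Rarb held 5 to 75 counts per library. In WT it was at 0.606 and 0.39 CPM at D0, 0.194 and 0.233 CPM at D2, 2.22 and 2.15 CPM at D4, 0.939 and 0.86 CPM at D6 and 1.02 and 1.32 CPM at D8. In TKO it was at 0.279 and 0.293, 0.309 and 0.481, 1.49 and 1.49, 0.782 and 0.561, and 0.664 and 0.459 CPM. Both genotypes peaked at D4, and from D2 to D4 Rarb rose by a log2 fold change of 3.32 in WT (SE 0.354, edgeR adjusted p = 2.23e-07) and 1.92 in TKO (SE 0.337, edgeR adjusted p = 8.01e-05).

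Against WT, Rarb was called at D8 alone, where it was lower in TKO (log2 fold change -1.06, SE 0.318, edgeR adjusted p = 0.00677). The call was lost without WT D8 replicate 2 (edgeR adjusted p = 0.0667), without TKO D8 replicate 2 (0.0891) and with counts scaled by transcript length (0.0954). Of the 31-mers of Rarb, 35.7% also occur in other genes, 32.1% in Top2b and 3.69% in Gm48162, both of which lie on the other strand. The strand setting of the counting is not given in the sources used here, so reads of Rarb and of these genes cannot be told apart there. The other 8 genes shared no 31-mer with another gene.

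Cyp26a1 and Cyp26b1 encode the P450 enzymes that clear retinoic acid, and their courses differed. Per unit of length, Cyp26a1 stood at 16.1 TPM and Cyp26b1 at 0.175 TPM in TKO at D0, and from D4 on Cyp26b1 had the higher TPM in both genotypes. At D0 Cyp26a1 held 0.542 and 0.845 CPM in WT against 19.9 and 20.7 CPM in TKO. The TKO libraries lay far above the WT libraries, with a log2 fold change of 4.86 (SE 0.286, edgeR adjusted p = 7.7e-10), which is 29.1-fold.

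That gap in Cyp26a1 closed within 2 days from both sides. At D2 the libraries held 4.42 and 3.46 CPM in WT against 4.56 and 4.81 CPM in TKO, and at D4 6.63 and 6.96 CPM against 5.83 and 5.55 CPM, neither called (edgeR adjusted p = 0.453 and 0.439). From D0 to D2 WT rose by a log2 fold change of 2.49 and TKO fell by 2.11 on the log2 scale. The difference between these steps was called (-4.60, SE 0.385, edgeR adjusted p = 9.89e-07).

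At D6 Cyp26a1 had dropped in WT to 0.939 and 1.29 CPM and stood at 7.5 and 7.93 CPM in TKO (log2 fold change 2.79, SE 0.274, edgeR adjusted p = 3.21e-07). At D8 the values were 0.882 and 0.899 CPM in WT against 1.92 and 4.38 CPM in TKO. Both TKO libraries were above WT but far from each other. The log2 fold change of 1.84 (SE 0.302, edgeR adjusted p = 3.41e-05) was 1.11 without TKO D8 replicate 2 (edgeR adjusted p = 0.00147).

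Cyp26b1 was at 0.922 CPM or less in every library of D0 and D2 and then rose in both genotypes. At D4 it held 29.3 and 38.1 CPM in WT against 133 and 141 CPM in TKO, and at D6 63.3 and 113 CPM against 230.1 and 332 CPM. All TKO libraries lay above all WT libraries on both days, by a log2 fold change of 2.02 at D4 (SE 0.206, edgeR adjusted p = 1.26e-06) and 1.67 at D6 (SE 0.197, edgeR adjusted p = 2.76e-06).

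At D8 Cyp26b1 reached 201 and 196 CPM in WT against 266 and 262 CPM in TKO. The libraries still did not overlap, but the difference of 0.41 (SE 0.190) missed the threshold (edgeR adjusted p = 0.0661). It passed in a fit of the 2 groups alone (edgeR adjusted p = 8.93e-07) and with no filter on low counts (edgeR adjusted p = 7.46e-08). With counts scaled by transcript length it did not pass. From D6 to D8 Cyp26b1 rose in WT by a log2 fold change of 1.17 and was at -0.09 in TKO, and the difference between the steps was called (-1.26, SE 0.271, edgeR adjusted p = 0.00083). In TPM at D8, Cyp26b1 was at 96 ± 0.375 in WT and 99.7 ± 0.308 in TKO, against 1.17 ± 0.08 and 3.27 ± 1.87 for Cyp26a1 (SD, n = 2).

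The share of Cyp26b1-202, which has the outermost start of the 5 annotated transcripts (position 84593908 of chromosome 6, GRCm38), was higher in every TKO library than in either WT library of the same day from D4 on. It held 12.6% and 7.59% of the TPM of the gene in WT at D4 and 17.9% and 18.5% in TKO. At D6 the shares were 17% and 14.6% in WT and 26.4% and 22.5% in TKO, and at D8 7.61% and 4.78% against 23.4% and 22.4%. No test was made of these shares. Cyp26b1-204 and Cyp26b1-205 held most of the rest, and the TPM of Cyp26b1-204 at D8 was 47.1 in WT and 40 in TKO.

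The number of these genes that differed between TKO and WT was highest at D8, as it was for all genes. At D0, 3 of 9 were called (39.3% of all genes were), all higher in TKO (19.4% of all genes). At D2, 4 of 9 were called (35.3% of all genes), all higher (18.4%). At D4, 3 of 9 were called (28.3% of all genes), of which Cyp26b1 was higher (15.1%) and Crabp1 and Stra6 lower (13.2%).

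Both later days held more calls among the 9 and among all genes. At D6, 6 of 9 were called (41.3% of all genes), 4 higher (20.9%) and 2, Crabp1 and Crabp2, lower (20.3%). At D8, 8 of 9 were called (67.5% of all genes), 5 higher (35.8%) and 3 lower, Crabp1, Crabp2 and Rarb (31.8%). The median log2 fold change of the 9 genes from D0 to D8 was 0.26, 0.85, -0.25, 0.31 and 1.39, while that of all genes stayed between -0.0031 and 0.038. No gene of the 9 was called in the same direction on all 5 days.

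**Figure D3:**
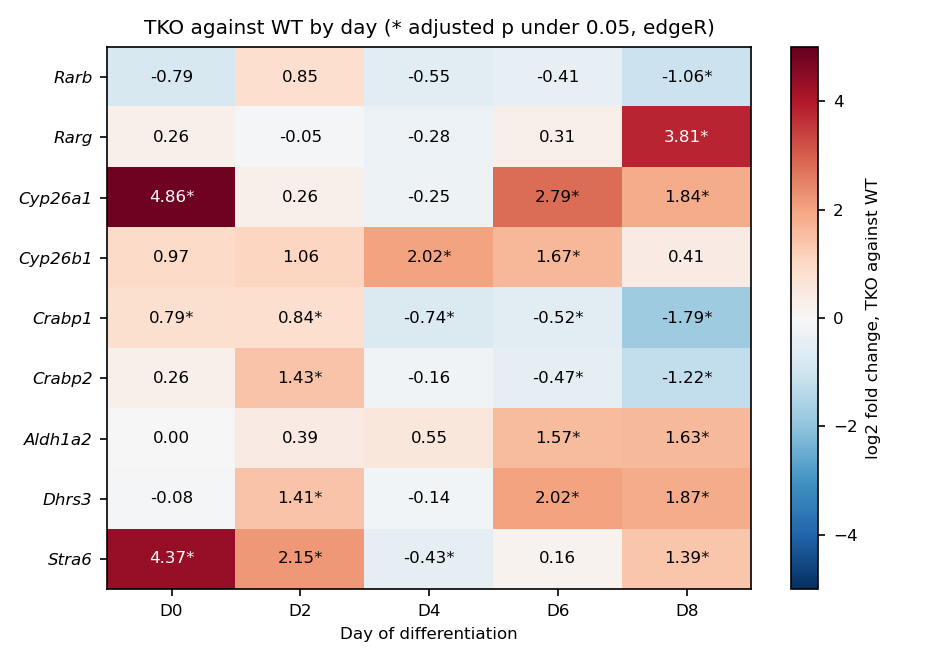
Log2 fold change of TKO against WT for each of the 9 genes (rows) at each day (columns), from blue for lower to red for higher in TKO, with the value in each cell and a star where the edgeR adjusted p is under 0.05. The values run from -1.79 for Crabp1 at D8 to 4.86 for Cyp26a1 at D0, and Crabp1 is starred on all 5 days with a change of sign between D2 and D4.

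Within a genotype, 7 of the 9 genes changed in WT from D0 to D2 (54.7% of all genes did), 6 upward (25.8%) and Rarb downward (28.9%). From D4 to D6 all 9 changed in WT (53.4%). From D6 to D8, 6 changed in WT (57%), of which Cyp26b1 and Dhrs3 rose (26.6%) and Rarg, Crabp1, Crabp2 and Stra6 fell (30.4%). In TKO, 6 changed from D0 to D2 (53.6%), 5 upward (26.6%) and Cyp26a1 downward (26.9%). From D4 to D6, 5 changed in TKO (48.1%), of which Cyp26b1 rose (24.7%) and 4 fell (23.4%). From D6 to D8, 7 changed in TKO (50%), of which Rarg, Aldh1a2 and Dhrs3 rose (25.5%) and 4 fell (24.5%). From D4 to D6 in WT, Rarb, Rarg, Cyp26a1, Crabp1, Aldh1a2, Dhrs3 and Stra6 fell (26% of all genes fell) and Cyp26b1 and Crabp2 rose (27.3% rose). Dhrs3 fell most, by 3.49 on the log2 scale (SE 0.322, edgeR adjusted p = 7.51e-08).

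Some of these steps were small or rested on few counts. The rise of Crabp2 from D4 to D6 in WT (log2 fold change 0.32, edgeR adjusted p = 0.0224) was lost without WT D4 replicate 2 (0.197) or WT D6 replicate 2 (0.453). The fall of Aldh1a2 over this step (-1.30, edgeR adjusted p = 0.0395) was lost without WT D4 replicate 1 (0.194) or WT D6 replicate 1 (0.334), with DESeq2 (0.0619), and in a fit of the 2 groups alone (0.0818). From D0 to D2 in WT, the fall of Rarb (-1.20, edgeR adjusted p = 0.0207) was lost without WT D0 replicate 1 (0.219), WT D2 replicate 1 (0.0897) or WT D2 replicate 2 (0.0586), with DESeq2 (0.0839), with no filter on low counts (0.054) and in a fit of the 2 groups alone (0.0725).

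The remaining fragile steps concern Crabp1, Dhrs3, Aldh1a2 and the TKO step from D4 to D6. From D0 to D2 Crabp1 rose in WT (0.37, edgeR adjusted p = 0.0104), which was lost without WT D0 replicate 1 (0.123) or WT D2 replicate 1 (0.0794), and in TKO (0.42, edgeR adjusted p = 0.00232), which was lost without TKO D2 replicate 1 (0.0557). From D6 to D8 the rise of Dhrs3 in WT was lost without WT D8 replicate 1 (edgeR adjusted p = 0.0603), and that of Aldh1a2 in TKO without TKO D6 replicate 1 (0.101) or TKO D8 replicate 2 (0.114). In TKO from D4 to D6, the fall of Rarg was lost without TKO D4 replicate 1 (edgeR adjusted p = 0.281) or TKO D6 replicate 2 (0.326) and with DESeq2 (0.0955), and that of Rarb without TKO D6 replicate 2 (0.0556). Over this step only 2 of the 5 calls, Cyp26b1 and Dhrs3, held with counts scaled by transcript length.

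Whether a step differed between the genotypes was tested as an interaction. From D0 to D2, 4 of the 9 steps differed (18.4% of all genes). Relative to WT, Cyp26a1 and Stra6 moved downward in TKO (-4.60 and -2.22, where 8.74% of all genes did), and Crabp2 and Dhrs3 upward (1.17 and 1.49, where 9.7% did). From D2 to D4, 4 differed (15.8% of all genes), all downward in TKO relative to WT (8.23%): Crabp1 (-1.58), Crabp2 (-1.59), Dhrs3 (-1.55) and Stra6 (-2.59). From D4 to D6, Cyp26a1 (3.05) and Dhrs3 (2.16) differed, both upward in TKO relative to WT, 2 of 9 (17.1% of all genes, 8.54% upward and 8.55% downward).

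From D6 to D8, 5 steps differed (49.9% of all genes), Rarg (3.51) and Stra6 (1.23) upward in TKO relative to WT (25.5%) and Cyp26b1 (-1.26), Crabp1 (-1.27) and Crabp2 (-0.76) downward (24.4%). The count from D4 to D6 was 4 without WT D6 replicate 1, which added Crabp2 and Cyp26b1. A joint test over all days called 8 of 9 (68.9% of all genes), and Rarb was the exception (edgeR adjusted p = 0.0517). Rarb passed with relative log expression scaling (0.0481) and without WT D0 replicate 2 (0.04), TKO D2 replicate 1 (0.0431) or TKO D8 replicate 1 (0.0474). The joint call of Aldh1a2 (0.0315) was lost without WT D0 replicate 2 (0.0601), WT D8 replicate 2 (0.0945), TKO D0 replicate 2 (0.0687) or TKO D8 replicate 2 (0.0877). The early interactions of Crabp2 and Dhrs3 also rested on single libraries. That of Crabp2 was lost without WT D0 replicate 1 (edgeR adjusted p = 0.112) or TKO D0 replicate 2 (0.0537), and that of Dhrs3 without WT D2 replicate 2 (0.0702), TKO D0 replicate 1 (0.0905) or TKO D2 replicate 1 (0.0874), with DESeq2 (0.0515), and in a fit of the 4 groups alone (0.0543).

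Another 59 genes of retinoid biology were listed from general knowledge, again with earlier results of these data known. Of these, 57 could be tested. In TKO against WT, 9 were higher and 13 lower at D0, 13 and 7 at D2, 9 and 16 at D4, 16 and 20 at D6, and 20 and 20 at D8. Among all genes, 19.4% were higher and 19.9% lower at D0, 18.4% and 16.9% at D2, 15.1% and 13.2% at D4, 20.9% and 20.3% at D6, and 35.8% and 31.8% at D8. The median log2 fold change of the list on these days was -0.17, 0.26, -0.06, -0.14 and -0.01. Among the 11 receptors and coregulators, Rara, the third retinoic acid receptor, was at 44.8 CPM in TKO and 64.6 CPM in WT at D2 (log2 fold change -0.53, edgeR adjusted p = 0.000214). Rara was also lower in TKO at D0 (-0.31) and D4 (-0.48) and was higher at D6 (0.39) and D8 (0.23), all called. Rxra, a partner of all of them, was at 29.9 CPM in TKO and 18.9 CPM in WT at D2 (0.66, edgeR adjusted p = 2.13e-06). Rxra was also higher at D0 (0.35) and D4 (0.21) and was lower at D6 (-0.21) and D8 (-0.37), all called. Nrip1, a corepressor that is itself a target of the acid, was at 31.4 CPM in TKO and 64.8 CPM in WT at D8 (-1.05, edgeR adjusted p = 4.77e-08).

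Of the 8 tested genes of uptake, storage and transport, 3 were higher and 2 lower at D0 (39.3% of all genes were called), and 4 higher and 1 lower at D8 (67.5%). Rbp4, the plasma carrier that Stra6 takes retinol from, was at 4.35 and 5.51 CPM in TKO and 0.636 and 0.96 CPM in WT at D6 (log2 fold change 2.62, edgeR adjusted p = 1.79e-06). Of the 17 tested enzymes that make or convert retinoids, 0 were higher and 2 lower at D0 (39.3% of all genes called), and 8 higher and 3 lower at D8 (67.5%).

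The 20 listed genes known to be induced by retinoic acid, 10 of them Hox genes of the anterior clusters, rose mostly between D2 and D4. From D2 to D4, 16 rose and none fell in WT (31.8% of all genes rose), with a median of 3.18, and 16 rose and 1 fell in TKO (31.6% rose), with a median of 2.73. With genes at 0 set to their bound, the WT median was 3.35 over 19 genes. Against WT the TKO level was higher for 5 and lower for 7 of 20 at D0 (19.4% and 19.9% of all genes), with a median of -0.57. At D2 it was higher for 5 and lower for 1 (18.4% and 16.9%), with a median of 0.51. Hoxb5 held only 0 and 2 counts in the compared groups on both days. Over the 19 genes without it the medians were -0.32 and 0.32. The TKO level was lower for 10 and higher for 1 of 20 at D4 (13.2% and 15.1% of all genes). At D6 it was lower for 12 and higher for 6 (20.3% and 20.9%), and at D8 lower for 12 and higher for 3 (31.8% and 35.8%). The median at D8 was -1.45, also with Stra8, which had no count in WT at D8, set to its bound.

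Hoxb1, an early direct target in the hindbrain, held 15 and 21.4 CPM in WT at D4, against 4 and 3.9 CPM in TKO. Both TKO libraries were below both WT libraries (log2 fold change -2.20, edgeR adjusted p = 8.71e-07). Hoxa2, which patterns the hindbrain, was at 61.1 and 61.2 CPM in WT against 2.38 and 2.36 CPM in TKO at D8 (log2 fold change -4.69, edgeR adjusted p = 1.23e-14). Hoxb2 was at 43.1 and 41.3 CPM against 1.33 and 1.78 CPM (-4.75, edgeR adjusted p = 1.34e-13). Their 31-mers are shared with other genes to 13.7% and 26.5%, and those of Hoxb3 to 52.7%, so their reads may be split with neighbours.

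Stra8, a target best known from germ cells, was lower in TKO at D0 (log2 fold change -2.09, edgeR adjusted p = 7.79e-05) and higher from D2 on. Its D4 libraries held 1.3 and 1.13 CPM (WT) and 12.7 and 7.5 CPM (TKO). At D8 Stra8 had no count in WT. Its TKO level of 0.105 and 0.459 CPM was at least 6.71-fold higher, against a floor of 3 counts over the WT group. Tgm2, which encodes a transglutaminase, and Hoxb5 were the other 2 genes called higher at D8 (1.17 and 2.25).

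**Figure D4:**
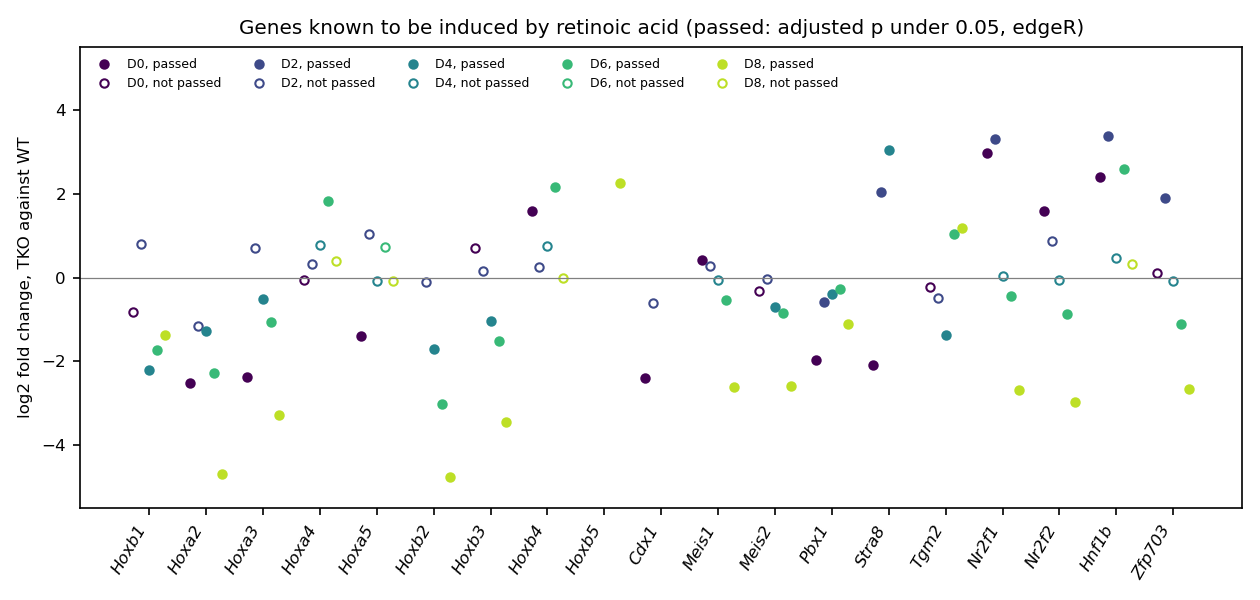
Log2 fold change of TKO against WT (vertical axis) for 19 of the 20 listed genes known to be induced by retinoic acid (horizontal axis), coloured by day, with filled points where the edgeR adjusted p is under 0.05 and open points where it is not. Points where a group held 3 counts or fewer over its 2 libraries are not drawn. Hoxa2 and Hoxb2 lie lowest at D8, at -4.69 and -4.75.

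Markers of other cell types moved with several of these differences. The 10 listed markers of visceral and primitive endoderm, an early embryonic layer that also expresses retinoid genes, summed to 25.8 to 34.2 CPM in WT and 378 to 420 CPM in TKO at D0. All 10 were higher in TKO at D0 and 9 of 10 at D2, and on both days Stra6 was higher in TKO too, as was Cyp26a1 at D0. One of the 10 was at 0 in both WT D0 libraries and none in TKO. At D4 the sums were 40.5 to 40.8 CPM in WT and 57.9 to 63 CPM in TKO. Of the 10 markers, 6 were then higher and 1 lower (15.1% and 13.2% of all genes). At D6, where Cyp26a1 was again higher in TKO, the sums were 40.7 to 52.3 CPM against 94.4 to 111 CPM. On that day 7 were higher and 0 lower (20.9% and 20.3% of all genes). At D8 the sums overlapped, with 74.5 to 120 CPM in WT and 81.9 to 134 CPM in TKO (3 higher, 2 lower), while Cyp26a1 and Stra6 were still higher in TKO. The part of these cells in the levels of Cyp26a1 and Stra6 was not tested. Markers of other lists were also called at D0 (19.4% of all genes higher in TKO, 19.9% lower) and D2 (18.4% and 16.9%). For mesenchyme and meninges, 4 were higher and 2 lower at D0, and 5 and 0 at D2. Trophoblast had 4 and 3, then 6 and 1, and neuron 2 and 1, then 7 and 0. Neural progenitor had 3 and 2, then 4 and 1, and neural crest 2 and 3, then 1 and 1. Mesoderm and somite had 2 and 1, then 3 and 0, and pluripotency 0 and 2, then 1 and 5.

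At D8 the 10 pluripotency markers summed to 239 to 265 CPM in WT and 1291 to 1378 CPM in TKO, with 9 higher and 1 lower in TKO and none at 0. Rarg was higher in TKO on that day. At D6 the sums were 253 to 267 CPM in WT and 304 to 361 CPM in TKO, again with 9 higher and 1 lower (median 3.38), and Rarg was not called (0.31). The 10 neural progenitor markers summed to 1927 to 1982 CPM in WT and 821 to 834 CPM in TKO (0 higher, 9 lower), and the 10 neuron markers to 3451 to 3491 CPM against 914 to 921 CPM (all 10 lower). Crabp1, Crabp2, Hoxa2 and Hoxb2 were lower on that day. At D6 Crabp1 and Crabp2 were also lower. Neural progenitor markers then summed to 2116 to 2197 CPM in WT and 1664 to 1802 CPM in TKO (2 higher, 6 lower). Of the neuron markers at D6, 7 were higher and 0 lower, on a day when 20.9% and 20.3% of all genes were. Their sums were 722 to 799 CPM in WT and 1147 to 1470 CPM in TKO. The part of the makeup of the cultures in these differences was not tested. At D8, where 35.8% of all genes were higher and 31.8% lower, of 10 trophoblast markers 7 were higher and 0 lower, of 10 neural crest markers 3 and 4, of 9 tested mesenchyme and meninges markers 2 and 3, and of 8 tested mesoderm and somite markers 4 and 1.

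**Figure D5:**
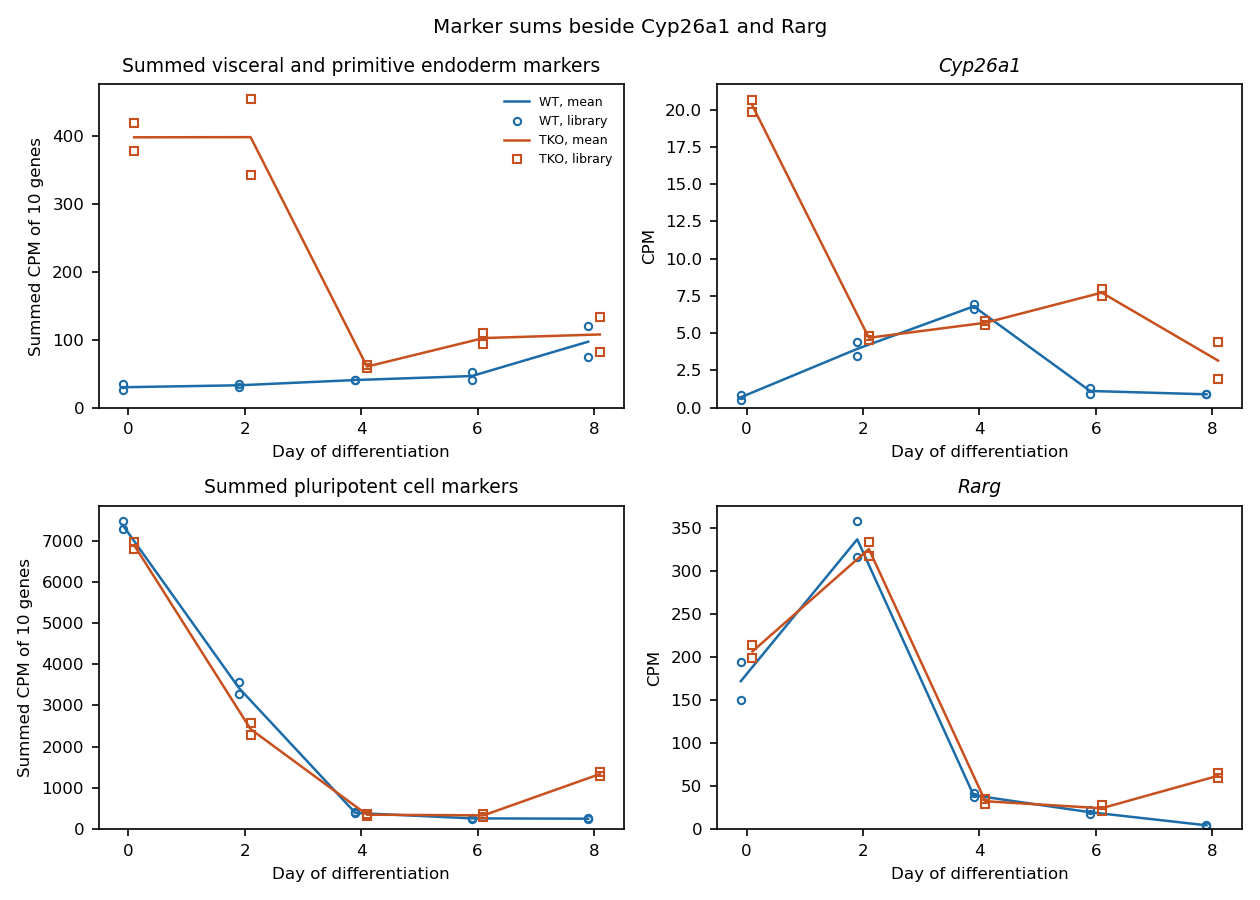
Summed CPM of 10 markers of visceral and primitive endoderm and of 10 pluripotency markers (left) beside the CPM of Cyp26a1 and Rarg (right), all on linear axes from 0, against day of differentiation. Points are the 2 libraries of a group (WT circles, TKO squares) and lines their means. In TKO from D0 to D2 the endoderm sum stays at 399 CPM although 6 of its 10 markers fell and 1 rose (median log2 fold change -1.20), and Cyp26a1 goes from 20.3 to 4.69 CPM.

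Of the 7 genes with a group mean of at least 5 CPM, Rarg followed Abt1 (r = 0.991), Rfc5 (0.991) and Ddx10 (0.987) most closely over the 10 group means of log2(CPM + 1). Cyp26b1 was most like Elk4 (0.99), Adcy2 (0.981) and Tdrd7 (0.98), Crabp1 like Ctdnep1 (0.992), Hspb11 (0.988) and Rln1 (0.985), and Crabp2 like Phtf1 (0.989), Tfg (0.987) and Gng10 (0.984). Stra6 was most like Ssr3 (0.99), Fst (0.972) and Abhd5 (0.966), and Aldh1a2 like Zfp281 (0.975), Cass4 (0.975) and Ttn (0.971). Cyp26a1 had the least close matches, with Ndufa13 (0.884), P4hb (0.828) and Edem1 (0.816), all 3 highest in TKO at D0. Of these, Rfc5, Hspb11, Gng10, Abhd5, Cass4 and Ndufa13 share over 10% of their 31-mers with other genes. The correlations describe 10 points that share libraries within a group, and were picked as the highest of all genes.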

How the data were processed

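RNA of 20 libraries was prepared with a strand-specific kit for polyadenylated RNA, per the labels' protocols. The authors deposited 1 kallisto table per library with the estimated count and the TPM of each of 119414 transcripts, per the file headers. The submitters' processing notes name Trim Galore 0.6.2, kallisto and the builds GRCm38 and mm10. The kallisto version and its strand setting are not given in the sources used here.

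Here, estimated counts were summed per gene over the 116728 transcripts found in GENCODE M21 and rounded. The 2686 transcripts without a match held 0.943% to 1.1% of the counts. Genes passing edgeR's low-count filter were fitted in 1 model of all 10 groups (edgeR 4.0.16, R 4.3.3, TMM scaling, quasi-likelihood F test, 10 residual degrees of freedom), with Benjamini-Hochberg adjustment over 18555 genes. The standard error is the log2 fold change divided by the root of F. In all, 18 comparisons were tested: 5 between genotypes, 8 steps between days, 4 genotype-by-step interactions and 1 joint interaction.

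The members and lists were chosen with earlier results of these data known. The rule for named genes took every member, up to 4 genes per role of the wider list with the largest called difference between genotypes at 5 CPM or more in a group, genes of that list needed as context, and the 3 most alike genes of each member reaching 5 CPM. Not all genes the rule allows are reported here. The alternatives tried were scaling by relative log expression, dropping the filter on low counts, a replicate block, counts from length-scaled TPM, a fit of the compared groups alone, DESeq2 1.42.0, leaving out each library, and a fit without the D8 libraries, added after seeing the data. Tested on simulated data for TKO against WT at D0 over 18555 genes, the fit called 46 of 67 genes changed 1.5-fold, 52 of 67 changed 2-fold and 64 of 66 changed 4-fold, with 7 unchanged genes called. Replicates differed by more than sampling noise in every group (chi-square per degree of freedom 2.88 to 27.2).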

Additional observations from a re-analysis of the deposited data

Results flagged for a closer look

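Steps between days differed between the genotypes by edgeR's test of the difference itself, which called 18.4% of all genes from D0 to D2, 15.8% from D2 to D4, 17.1% from D4 to D6 and 49.9% from D6 to D8. Values are the TKO step minus the WT step on the log2 scale. For Stra6 the difference was -2.22 from D0 to D2, -2.59 from D2 to D4 and 1.23 from D6 to D8. For Dhrs3 it was 1.49 from D0 to D2, -1.55 from D2 to D4 and 2.16 from D4 to D6. For Crabp1 it was -1.58 from D2 to D4 and -1.27 from D6 to D8. For Crabp2 it was 1.17 from D0 to D2, -1.59 from D2 to D4 and -0.76 from D6 to D8. Cyp26a1 had the widest, -4.60 from D0 to D2, and 3.05 from D4 to D6. Rarg had 3.51 and Cyp26b1 -1.26, both from D6 to D8.

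The joint edgeR test of genotype by day, which called 68.9% of all genes, gave an adjusted p of 1.79e-10 for Crabp1, 9.6e-10 for Rarg, 5.03e-09 for Stra6, 1.23e-08 for Cyp26a1, 1.95e-08 for Crabp2, 0.000126 for Dhrs3, 0.000724 for Cyp26b1 and 0.0315 for Aldh1a2.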

How the results depend on the processing

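Of 224 counts of called genes recomputed under the alternatives, 221 stayed within 1.5 times the reported count. The count for TKO from D4 to D6 was 2 in place of 5 with counts from length-scaled TPM. The interaction from D4 to D6 called 6 in place of 2 with no filter on low counts, and 2 to 4 with 1 library left out, 4 of them without WT D6 replicate 1. Of 484 changes of single genes between the genotypes, 455 kept their direction and side of the threshold, 11 lost their call, 9 gained one and 9 changed sign.

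All 9 sign changes were in differences that were not called. Aldh1a2 at D0 was at -0.00457 with no filter on low counts, -0.00556 with the replicate block, -0.00709 with length-scaled TPM and -0.00344 without the D8 libraries, and it ran from -0.33 to 0.41 with 1 library left out. Dhrs3 at D0 was at 0.071 with length-scaled TPM and ran from -0.25 to 0.067 with 1 library left out. Rarg at D2 ran from -0.15 to 0.052.

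No label says what the replicate numbers share across groups. Deviations of same-numbered WT and TKO libraries of a day correlated at -0.0987 to 0.134, which cannot show whether they were handled together. With the replicate block, Cyp26b1 at D8 (edgeR adjusted p = 0.0233) and the interaction of Stra6 from D4 to D6 (0.0404) passed, and no other call of these genes changed. Depth limits the low genes: Rarb had 75 counts or fewer in each library and Dhrs3 97 or fewer.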
